A study of Oryctolagus cuniculus with 3 samples.

Results

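Transcripts of the aortic media, the wall layer built of smooth muscle cells and elastic sheets, were compared between rabbits transgenic for the mouse PGC1-alpha gene and non-transgenic rabbits, both on a high cholesterol diet. The comparison takes in 11597 of the 15248 rabbit genes in the authors' table, those that averaged 1 FPKM or more across the series' 3 libraries. FPKM is a fragment count scaled to transcript length and to the library's mapped total. All animals were males of the strain JW/CSK, 9 months old. The 2 libraries compared came from non-transgenic and transgenic animals fed the cholesterol diet for 20 weeks, and a library of non-transgenic animals on chow completes the series. For each library the RNA of 5 rabbits was pooled, so a value averages 5 animals, nothing measures the spread between them, and no test or p-value is possible. The labels do not give the diet's cholesterol content. Neither the promoter that drives the transgene nor the number of founder lines is given in the sources used here. The labels place both cholesterol libraries on 1 sequencing lane and the chow library on another.

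PGC-1alpha is a transcriptional coactivator that binds nuclear receptors and other factors and raises the transcription of nuclear genes for mitochondrial proteins. Its known partners include the estrogen related receptors, NRF1, GABPA and the PPAR receptors, and its known targets include TFAM, which maintains mitochondrial DNA, and enzymes of fatty acid oxidation. On a cholesterol diet the rabbit aorta is known to develop lesions in which lipid-laden macrophages gather and smooth muscle cells lose contractile proteins and make matrix.

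The transgene was seen only in the library labelled transgenic. The row of mouse Ppargc1a was listed at 0 FPKM on chow and at 0 FPKM in non-transgenic animals on the cholesterol diet, and reached 12.8 FPKM in transgenic animals. Rabbit PPARGC1A (OryCun2.0 chromosome 2, 14399464 to 14502163) stood at 1.18 FPKM on chow, 1.76 in the non-transgenic and 2.29 in the transgenic cholesterol library. The mouse row was therefore 5.57 times the rabbit row in the transgenic library. Smooth muscle markers were abundant, as the tissue label has it: ACTA2, smooth muscle actin, had 12462 FPKM on chow, 5161 in non-transgenic and 6594 in transgenic animals on the cholesterol diet. Every set of 3 values below follows that order of libraries.

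Most genes had like levels in both cholesterol libraries. The difference used throughout is log2(FPKM + 1) in the transgenic minus log2(FPKM + 1) in the non-transgenic library, and 83.1% of genes lay within 0.5 of 0. At least 2-fold higher in the transgenic library were 197 genes (1.7%), and at least 2-fold lower were 244 (2.1%). An exact 0 in such a table can be a failed estimate: 133 genes were listed at 0 in 1 or both of the 2 libraries, among them 53 of the 197 and 49 of the 244. Over the 11464 genes above 0 in both, 144 were higher (1.26%) and 195 lower (1.7%). The difference was above 0 in 48.1% of genes and below 0 in 51.7%, with a median of -0.01. Every list count below is to be read beside these shares, 1.7% at least 2-fold higher and 2.1% at least 2-fold lower included.

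The spread depended on level. The central 95% of differences ran from -1.35 to 1.15 among the 2628 genes with a mean of 1 to 5 FPKM, from -0.78 to 0.79 among the 4569 genes from 5 to 20, from -0.70 to 0.74 among the 3372 genes from 20 to 100, and from -0.87 to 0.99 among the 1028 genes at 100 or more. A gene outside this range for its level is called outside the level range below, and by construction 292 genes (2.52%) lay above it and 292 (2.52%) below. FPKM summed to 903706 over rabbit rows in the non-transgenic and 824447 in the transgenic library. Scaling each library to its sum would raise the median difference of all genes by 0.12 and turn the split of 2-fold genes to 281 higher and 207 lower, so a median close to 0 has no settled direction.

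**Figure D1:**
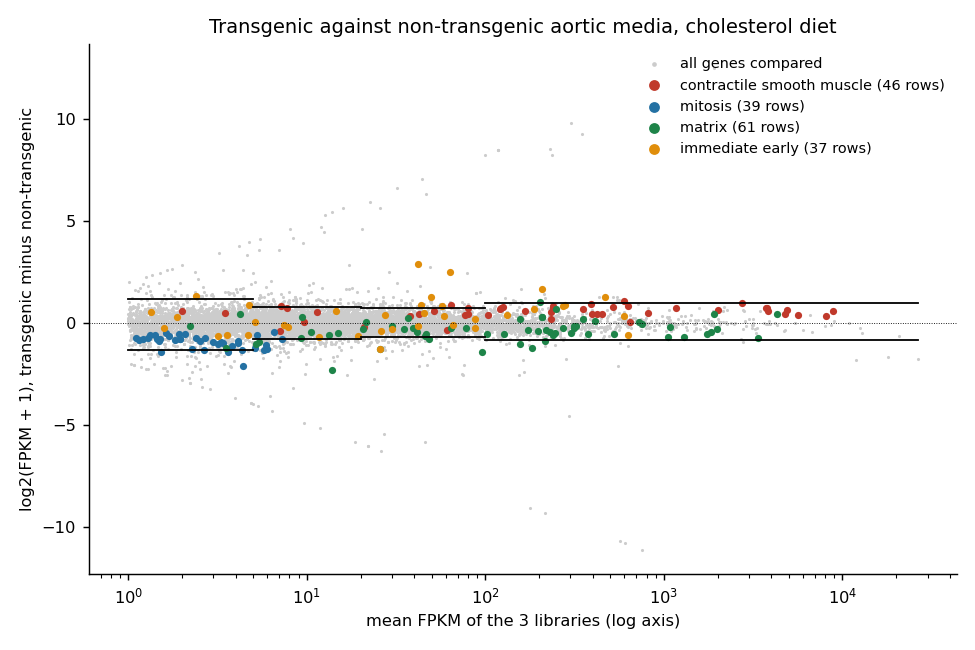
Difference in log2(FPKM + 1), transgenic minus non-transgenic cholesterol library (vertical axis), against the mean FPKM of the 3 libraries (horizontal log axis). Each point is 1 of 11597 genes, black lines bound the central 95% of differences at each level, and coloured points are 4 gene lists. The contractile genes lie mostly above 0 (43 of 46), the mitosis genes all below (39 of 39).

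Genes of the contractile apparatus were higher in the transgenic library. Of 46 rows, 43 had a difference above 0 (48.1% of all genes), with a median of 0.56. Only HSPB6 passed 2-fold, and 3 rows lay above the level range, so the difference was small in each gene and present in most. Summed over the list, the level was 86507 FPKM on chow, 34264 in the non-transgenic and 50118 in the transgenic library. Such sums, here and below, cover every row of a list in the table, those under the filter included.

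Among the filament proteins, 25 of 26 rows were above 0, with a median of 0.57. MYH11, the smooth muscle myosin heavy chain, stood at 6284, 1951 and 3165 FPKM, a difference of 0.70. LMOD1, which nucleates actin filaments, stood at 653, 179 and 340 FPKM (0.92). SYNM, an intermediate filament protein, stood at 106, 30.6 and 56.4 FPKM (0.86), above the level range. In each of these genes the transgenic library lay between the other 2.

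Of the genes for contractile signalling, 15 of 16 were above 0, with a median of 0.69. PPP1R14A, which inhibits myosin phosphatase, stood at 4287, 1337 and 2634 FPKM (0.98), at a locus that overlaps another row's. HSPB6, a small heat shock protein that takes part in smooth muscle relaxation, stood at 1024, 251 and 526 FPKM (1.06), and its locus too overlaps another row's. The regulators differed less, with a median of 0.23 over 4 rows. MYOCD, the coactivator that drives the smooth muscle programme, stood at 83.9, 28.7 and 42.6 FPKM (0.55), and its partner SRF at 114, 53.8 and 73.8 (0.45). MKL2, another SRF coactivator, was at 6.20, 8.75 and 6.26 FPKM (-0.43).

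Markers of other cells differed between the same libraries. Over 26 rows of myeloid identity the sum was 2569 FPKM in the non-transgenic and 1875 in the transgenic library, with none listed at 0 in either, while over 17 rows of resident-type macrophages it was 1152 and 1696 FPKM. In pooled bulk tissue, a larger share of a cell type and more RNA per cell cannot be told apart, and the part of the cell mixture in the contractile difference was not tested.

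Striated-type muscle genes had 7 of 20 rows over the filter, with 5 above 0, 2 of them by 2-fold or more, and a median of 0.31. TNNT2, the cardiac troponin T, stood at 197, 56.3 and 133 FPKM (1.23), CKM, muscle creatine kinase, at 57.4, 19.1 and 37.0 (0.92), and ACTA1, skeletal actin, at 1.98, 0.205 and 1.90 (1.27). These 3 genes lay above the level range, while the cardiac actin ACTC1 stood at 7.51, 1.19 and 0.658 FPKM (-0.40).

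The heat shock list divided by role. The 5 small heat shock genes were all above 0, with a median of 0.72, while the 7 inducible chaperone genes had a median of -0.01. HSPB7 stood at 70.9, 25.5 and 45.5 FPKM (0.81), HSPB1 at 2074, 1006 and 1663 (0.72) and CRYAB, alphaB-crystallin, at 409, 302 and 472 (0.64). The cytosolic chaperone HSPA8 stood at 579, 768 and 771 FPKM (0.01). HSPB6, given above, belongs to this list as well.

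Genes of mitosis were lower in the transgenic library without exception. All 39 rows had a difference below 0 (51.7% of all genes), 14 by 2-fold or more (2.1%), and the median was -0.85. The summed level was 17.9 FPKM on chow, 236 in the non-transgenic and 101 in the transgenic library. Most of these genes had low levels, where the spread is widest, and 8 of the 39 lay below the level range (2.52%).

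CENPA, the histone of the centromere (OryCun2.0 chromosome 2, 159193483 to 159198631), was listed at 0 FPKM on chow and stood at 11.4 and 1.84 FPKM in the cholesterol libraries, a difference of -2.12. CCNB1, the cyclin of mitotic entry, stood at 0.285, 8.19 and 2.35 FPKM (-1.46), and HMMR, a spindle protein, at 0.058, 3.77 and 0.737 (-1.46). KIF20A, a kinesin of cytokinesis, stood at 0.423, 9.53 and 3.14 FPKM (-1.35). The mitosis gene nearest to 0 was PRC1, a bundler of the midzone spindle, at 0.583, 11.17 and 7.996 FPKM (-0.44).

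DNA replication genes differed by less. Of 30 rows 28 lay below 0 (51.7% of all genes), 3 by 2-fold or more (2.1%), with a median of -0.50. The sum over all 36 rows was 130, 356 and 251 FPKM. CCNE2, the cyclin E2 of S phase entry, stood at 0.109, 3.63 and 0.606 FPKM (-1.53), RRM2, a subunit of ribonucleotide reductase, at 0.428, 13.7 and 5.57 (-1.16), and TK1, thymidine kinase, at 20.5 and 9.06 in the cholesterol libraries (-1.09). PCNA, the sliding clamp, was lower by less, at 35.2, 82.1 and 68.2 FPKM (-0.26), and TYMS, thymidylate synthase, stood at 9.46, 14.5 and 16.2 (0.16). Which cells divided is not given by these data.

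**Figure D2:**
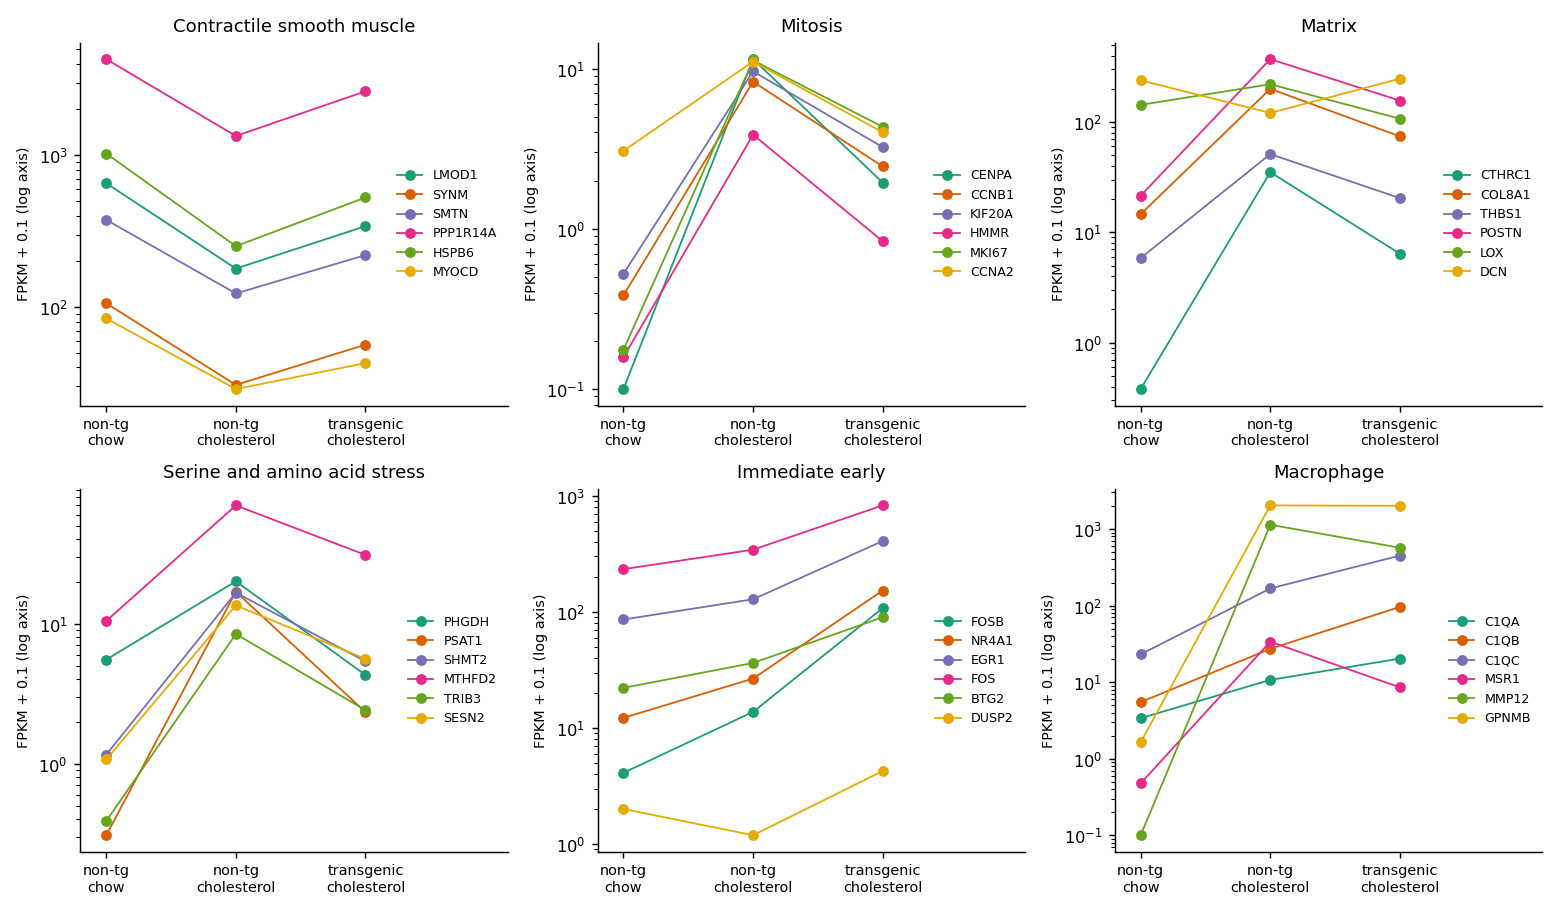
FPKM + 0.1 on a log axis in the 3 libraries for 6 genes of each of 6 groups. Lines join the values of 1 gene across libraries, which are categories and have no replicates. The drawn contractile and mitosis genes have the transgenic library between the other 2, and the drawn immediate early genes are highest there.

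Matrix transcripts were mostly less abundant in transgenic animals, with exceptions in every group of the list but the fibrillar collagens. Of 61 rows 47 lay below 0 (51.7% of all genes), 7 by 2-fold or more (2.1%), and the median was -0.42. The 6 fibrillar collagen rows were all below 0, with a median of -0.66. COL1A1, the main chain of type I collagen, stood at 677, 1992 and 1245 FPKM (-0.68), COL1A2 at 702, 1526 and 927 (-0.72), and COL3A1 at 2021, 1891 and 1310 (-0.53). COL3A1 was thus lower than on chow, while both type I chains lay between the other 2 libraries.

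Of 11 other collagens, 9 were below 0, with a median of -0.45. COL8A1, a short-chain collagen of injured vessels (OryCun2.0 chromosome 14, 120912577 to 121077726), stood at 14.5, 200 and 73.9 FPKM (-1.42). Matricellular genes were below 0 in 11 of 13 rows, 4 of them by 2-fold or more, with a median of -0.48. CTHRC1, a secreted protein of injured arteries (chromosome 3, 118774867 to 118791581), stood at 0.280, 35.0 and 6.30 FPKM (-2.30), THBS1, thrombospondin, at 5.75, 51.0 and 20.3 (-1.29), and POSTN, periostin, at 21.4, 371 and 156 (-1.24). SPP1, osteopontin, which macrophages make as well, was close in the cholesterol libraries at 22.1, 1740 and 1493 FPKM (-0.22).

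The elastic fibre and crosslinking group was below 0 in 14 of 20 rows, with a median of -0.24, and 2 rows passed 2-fold. LOX, the enzyme that crosslinks collagen and elastin, stood at 143, 220 and 107 FPKM (-1.03), below its chow level. P4HA3, a collagen prolyl hydroxylase subunit, was listed at 0 on chow and stood at 7.86 and 2.72 FPKM in the cholesterol libraries (-1.25). MFAP5, a microfibril protein, had the opposite sign at 346, 154 and 243 FPKM (0.65). Among 11 proteoglycans the median was -0.19, and DCN, decorin, was the 1 matrix gene at least 2-fold higher, at 238, 121 and 247 FPKM (1.03). LUM, lumican, a relative of decorin, had the opposite sign at 85.1, 370 and 196 FPKM (-0.92).

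The protease list and its inhibitors lay below 0 in 11 of 15 rows (51.7% of all genes), with a median of -0.56. By 2-fold or more were 2 of them (2.1%). The sum over all 18 rows was 683, 2390 and 1461 FPKM. MMP1, interstitial collagenase, was listed at 0 on chow and stood at 9.91 and 1.01 FPKM (-2.44), and MMP3, stromelysin, was at 0, 5.73 and 0.661 (-2.02). These 2 genes, the ones past 2-fold, passed the filter only through their non-transgenic values. With no filter the list's median was -0.51. MMP12, the macrophage elastase, which is also on the foam cell list, was listed at 0, then at 1137 and 569 FPKM (-0.997). MMP12 alone thus held 1137 of the 2390 FPKM of the list in the non-transgenic and 569 of the 1461 in the transgenic library. TIMP1, an inhibitor of these proteases, stood at 73.6, 476 and 268 FPKM (-0.83).

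Of 20 adventitial fibroblast markers, cells of the layer around the media, 15 were above 0 (48.1% of all genes), with a median of 0.41. The markers' sum was 5924, 3810 and 4806 FPKM. Their part in the matrix differences was not tested. TNXB, tenascin X, stood at 49.1, 9.98 and 19.9 FPKM (0.93) and ABCA8, a transporter, at 11.2, 3.93 and 8.73 (0.98). SFRP1, a WNT antagonist, was the exception beyond 2-fold at 2.17, 22.1 and 8.46 FPKM (-1.29). DCN, LUM and MFAP5 stand on this list as well as on the matrix list. PI16 stood at 411 FPKM on chow and 298 in the transgenic library but was listed at 0 between them. The markers' sum includes these values of PI16, the 0 among them.

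Genes of serine synthesis and of the amino acid stress response were lower in the transgenic library. Of 48 rows, 37 were below 0 (51.7% of all genes), 6 by 2-fold or more (2.1%), with a median of -0.50. This response, driven by the factor ATF4, makes and imports amino acids when they run short. The serine and one-carbon group had 7 of 9 rows below 0 and 4 at 2-fold or more. PSAT1, the second enzyme of serine synthesis (OryCun2.0 chromosome 1, 64697635 to 64728069), stood at 0.208, 16.8 and 2.23 FPKM (-2.46). PHGDH, the first enzyme (chromosome 13, 44692974 to 44724681), stood at 5.44, 20.0 and 4.20 FPKM (-2.01), below its chow level. SHMT2, which passes a carbon from serine to folate in mitochondria, stood at 1.06, 16.6 and 5.29 FPKM (-1.48), and MTHFD2, the next enzyme there, at 10.4, 69.9 and 30.9 (-1.15). PSPH, the last enzyme of serine synthesis, was at 1.93, 2.92 and 3.69 FPKM (0.26).

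The stress regulators were below 0 in 8 of 11 rows, with a median of -0.31. TRIB3, a target and inhibitor of ATF4, stood at 0.290, 8.33 and 2.31 FPKM (-1.49), and SESN2, which restrains mTORC1, at 0.973, 13.4 and 5.51 (-1.15). NUPR1, a stress-induced nuclear protein, was listed at 27.8, 0 and 49.0 FPKM, and its nominal difference rests on that 0. Of 7 amino acid transporters 6 were below 0 (median -0.62), and all 12 tRNA synthetases were (median -0.48), none of them by 2-fold. Other amino acid enzymes had a median of 0.07 over 9 rows, where CBS, which makes cystathionine, stood at 9.99, 3.61 and 8.34 FPKM (1.02).

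Glycolysis genes lay below 0 in 19 of 25 rows (51.7% of all genes), with a median of -0.49. ENO2, an enolase, was the 1 gene at least 2-fold lower, at 0.818, 5.22 and 1.30 FPKM (-1.44). SLC2A3, a glucose transporter, stood at 3.75, 43.1 and 22.1 FPKM (-0.93), LDHA, lactate dehydrogenase A, at 45.4, 206 and 112 (-0.88), and the more abundant of 2 GAPDH rows at 309, 531 and 301 (-0.82). PFKP, a phosphofructokinase, stood at 216, 85.6 and 111 FPKM (0.37) and ALDOC, an aldolase, at 4.83, 9.02 and 12.2 (0.40).

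The hypoxia list, which shares LDHA, PGK1, ENO1 and other glycolytic genes, was below 0 in 22 of 30 rows, with a median of -0.28 and 1 gene at 2-fold. That gene was VEGFA, the endothelial growth factor, at 7.21, 51.9 and 19.7 FPKM (-1.35). CA9, a carbonic anhydrase of hypoxic cells, stood at 18.5, 28.5 and 15.7 FPKM (-0.82), and PGK1 at 69.4, 187 and 113 (-0.72). Genes of the unfolded protein response lay below 0 in 28 of 31 rows but by little, with a median of -0.18. With libraries scaled to their sums 21 were below 0 and 10 above, with a median of -0.05. SERP1, which acts at the ER translocon, stood at 133.5, 303 and 56.2 FPKM (-2.41) and the collagen-linked factor CREB3L1 at 2.99, 15.6 and 5.14 (-1.43). SEC61B, a subunit of that translocon, was listed at 0, 16.1 and 0 FPKM, while SPCS2, a signal peptidase subunit, stood at 1.66, 0.433 and 2.67 (1.36). The main ER chaperone HSPA5 was at 132, 220 and 187 FPKM (-0.23).

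**Figure D3:**
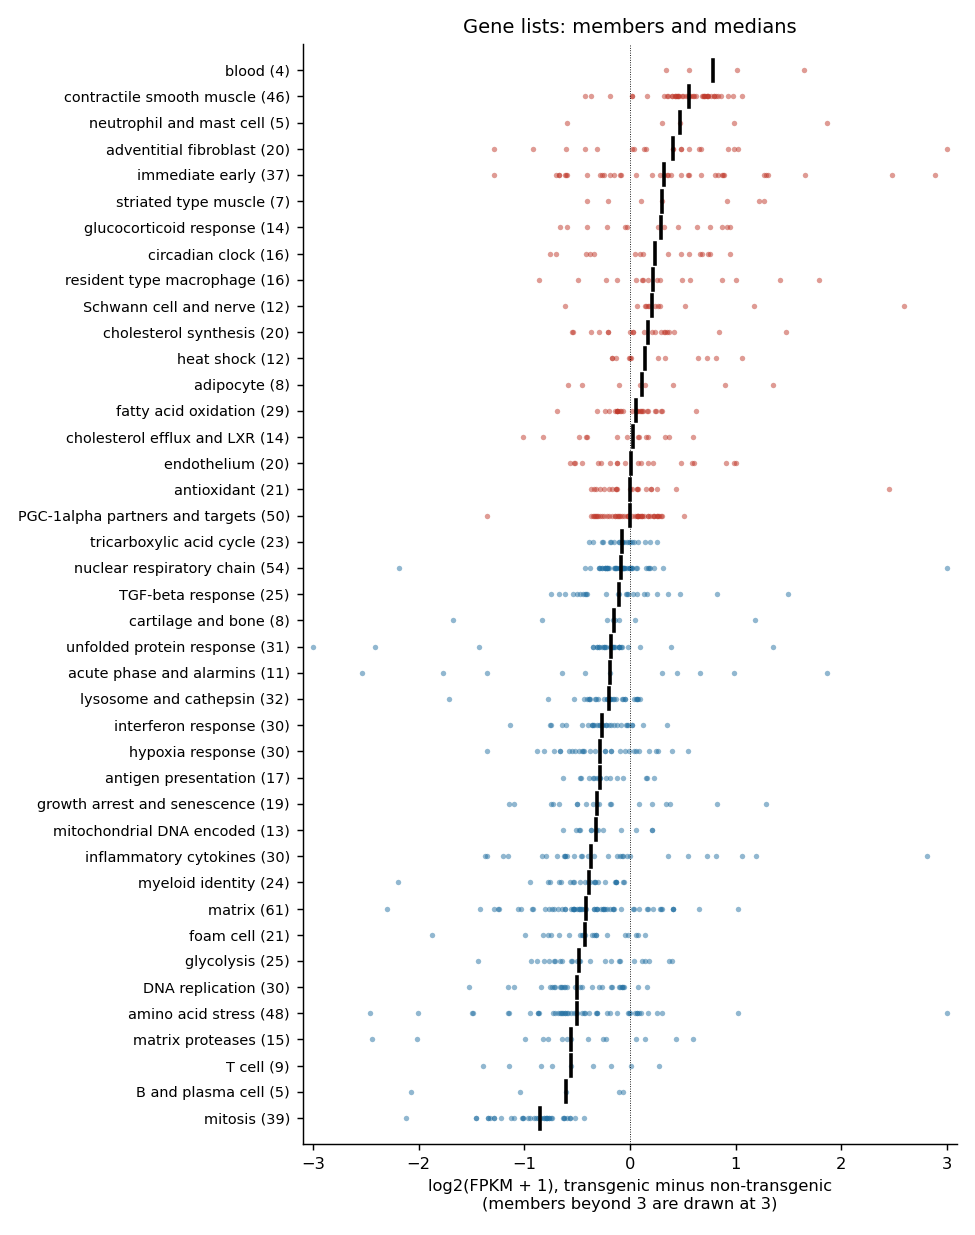
Difference in log2(FPKM + 1), transgenic minus non-transgenic cholesterol library (horizontal axis), for the members of 41 gene lists (vertical axis, number of rows in brackets). Each point is a gene, the black bar is the list's median, red points belong to lists with a median of 0 or more and blue points to lists below 0. Medians run from -0.85 for mitosis to 0.79 for the 4 blood genes.

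Macrophage genes did not differ as a block. The 24 genes of myeloid identity were all below 0 (median -0.39), and 18 of 21 foam cell genes were (median -0.43), while 12 of 16 genes of resident-type macrophages were above 0 (median 0.21), 3 of them by 2-fold or more (1.7%). Their sums were 56.2, 2569 and 1875 FPKM for the myeloid list, 493, 13413 and 11269 for the foam cell list, and 296, 1152 and 1696 for the resident-type list.

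The complement C1q chains were among the 4 largest differences of the resident-type list. C1QB stood at 5.39, 27.1 and 96.0 FPKM (1.79), C1QC at 23.0, 167 and 450 (1.42), and C1QA at 3.28, 10.6 and 20.2 (0.87). The 3 chains form 1 protein, and their genes lie next to each other on OryCun2.0 chromosome 13 (130475113 to 130493886), and all 3 were highest in the transgenic library and above the level range. LYVE1, a hyaluronan receptor that lymphatic endothelium shares, stood at 14.8, 12.9 and 26.9 FPKM (1.01). Other markers of such cells were closer: VSIG4, a complement receptor, stood at 4.94, 71.2 and 77.6 FPKM (0.12), and CD163, a haemoglobin scavenger receptor, at 2.54, 6.91 and 7.92 (0.17). MS4A4A, a membrane protein of macrophages, was at 4.82, 14.3 and 7.42 FPKM (-0.86).

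In the foam cell list, MSR1, a scavenger receptor for modified lipoprotein, stood at 0.376, 33.7 and 8.44 FPKM (-1.88), the 1 member at least 2-fold lower. Its locus overlaps another row's. APOC1, an apolipoprotein of lipid-laden macrophages, was listed at 0 on chow and stood at 73.4 and 40.9 FPKM (-0.83), and ATP6V0D2, a proton pump subunit, at 1.45, 261 and 152 (-0.77). Abundant foam cell transcripts were uneven: beside MMP12, given above (-0.997), GPNMB, a lysosomal glycoprotein, stood at 1.54, 2034 and 2010 FPKM (-0.02) and TREM2, a lipid receptor, at 2.10, 393 and 305 (-0.36). Within the myeloid list, LCP1, plastin of leukocytes, stood at 5.88, 513 and 304 FPKM (-0.75) and CSF2RB, a cytokine receptor chain, at 0.322, 25.3 and 12.6 (-0.95). Of the 2 rows of LYZ, lysozyme, 1 stood at 4.90, 5.88 and 0.504 FPKM (-2.19) and the other at 3.45, 39.6 and 22.7 (-0.77), and reads may be divided between them.

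Acute phase genes were uneven, with 5 of 11 rows above 0 and a median of -0.19, and the sum over all 15 rows was 125, 1325 and 500 FPKM. SAA3, serum amyloid A, stood at 7.14, 389 and 66.0 FPKM (-2.54), HP, haptoglobin, at 61.9, 607 and 177 (-1.77), and CP, ceruloplasmin, at 2.22, 72.7 and 27.9 (-1.35). S100A8, an alarmin of neutrophils and monocytes, had the opposite sign, listed at 0 on chow and at 6.07 and 24.8 FPKM (1.87). Of 10 neutrophil and mast cell rows 5 were over the filter, and 4 of these were above 0 (median 0.48). With no filter the median was 0.30. S100A12, listed at 0, then at 1.42 and 3.80 FPKM (0.99), passed the filter only through its transgenic value. MMP9, a gelatinase, stood at 0.166, 6.83 and 4.19 FPKM (-0.59).

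Inflammatory cytokines and adhesion molecules lay below 0 in 22 of 30 rows (51.7% of all genes), with a median of -0.37. At least 2-fold lower were 4 of them (2.1%), and 3 passed 2-fold in the other direction (1.7%). Over the 28 rows above 0 in both cholesterol libraries, 4 were lower and 2 higher. CXCL10, an interferon-induced chemokine, stood at 5.31, 61.7 and 23.2 FPKM (-1.37), CCL2, the main monocyte chemokine, at 0.637, 23.3 and 9.51 (-1.21), and IL1RN, the interleukin-1 receptor antagonist, at 0.160, 33.7 and 12.6 (-1.35). LIF, a cytokine of the interleukin-6 family, was the fourth at 0.264, 2.94 and 0.768 (-1.16). It passed the filter only through its non-transgenic value. CCL21, a lymphatic chemokine, was higher at 136, 98.5 and 206 FPKM (1.06), as was PTGES, prostaglandin E synthase, at 11.6, 4.43 and 11.4 (1.19). CCL8, another monocyte chemokine, had 6.03 FPKM in transgenic animals and was at 0 elsewhere, so it passed the filter only through its transgenic value.

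Interferon response genes lay below 0 in 26 of 30 rows (51.7% of all genes), with a median of -0.26. RSAD2, an antiviral enzyme, stood at 1.70, 13.6 and 5.64 FPKM (-1.14), the only member to pass 2-fold, and IFIT2, which binds viral RNA, at 26.2, 44.0 and 25.8 (-0.75). The factor IRF7 was at 4.39, 44.4 and 56.7 FPKM (0.35). Antigen presentation genes were below 0 in 14 of 17 rows (median -0.29), with none at 2-fold, and PSMB8, a subunit of the immunoproteasome, stood at 2.51, 30.8 and 19.5 FPKM (-0.64).

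Few lymphocyte markers passed the filter. Of 9 T cell rows over the filter 7 were below 0 (51.7% of all genes), with a median of -0.56. LAT, an adaptor of the T cell receptor, stood at 0.556, 16.2 and 5.56 FPKM (-1.39). IL7R, a cytokine receptor, was at 0.469, 26.1 and 11.2 FPKM (-1.15). The receptor chain CD3E was at 2.20, 2.81 and 1.13 FPKM (-0.84). All 5 B and plasma cell rows over the filter were below 0 (51.7% of all genes), with a median of -0.61. Scaled to library sums, only 3 of the 5 were below 0 and 2 above, with a median of -0.55. MZB1 and DERL3 of this list passed the filter only through their non-transgenic values. Their being below 0 is thus partly set by the filter and is no independent evidence. With no filter the list's median was -0.11. The sum over all 11 rows, 6 of them under the filter, was 5.67, 224 and 77.9 FPKM. JCHAIN, which joins immunoglobulins of plasma cells, made up most of that sum at 5.52, 181 and 42.3 FPKM (-2.07), while CD22, a B cell receptor regulator, was close at 0.028, 33.9 and 31.4 (-0.11).

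Several immediate early genes were far higher in the transgenic library. Of 37 rows 22 were above 0 (48.1% of all genes), 6 by 2-fold or more (1.7%), with a median of 0.32. The sum over all 39 rows was 2582, 3448 and 4828 FPKM. These genes are induced within minutes by growth factors and other stimuli. FOSB, a partner of JUN (OryCun2.0 scaffold GL019006, 121963 to 124101), stood at 4.01, 13.7 and 107.6 FPKM (2.89). NR4A1, an orphan nuclear receptor (chromosome 4, 36199410 to 36208038), stood at 12.1, 26.6 and 152 FPKM (2.48), and EGR1, a zinc finger factor (chromosome 3, 20738992 to 20741275), at 85.9, 128 and 407 (1.66). The 3 genes were highest in the transgenic and lowest in the chow library.

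FOS stood at 233, 343 and 826 FPKM (1.26), BTG2, an antiproliferative gene, at 22.1, 36.2 and 89.8 (1.29) and DUSP2, a MAP kinase phosphatase, at 1.91, 1.09 and 4.16 (1.30). Other members had the opposite sign. The transcription factors had a median of 0.55 over 19 rows and the feedback regulators 0.26 over 14, but EGR2 stood at 1.45, 5.18 and 2.87 FPKM (-0.67), KLF10 at 14.1, 27.5 and 16.8 (-0.67) and MYC at 17.4, 39.8 and 32.5 (-0.28). The 4 secreted products had a median of -0.43, THBS1 among them.

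Clock genes were above 0 in 11 of 16 rows (median 0.24), with none at 2-fold, and the labels do not give the time of day at which tissue was taken. Of 8 repressors 7 were above 0 (median 0.42), and 3 of 4 output factors were (median 0.61), while 3 of 4 activators were below 0 (median -0.36). PER1 stood at 25.8, 13.2 and 26.2 FPKM (0.94), CRY2 at 26.1, 8.72 and 15.5 (0.76) and the output factor TEF at 84.5, 40.0 and 67.6 (0.74), whereas ARNTL, the BMAL1 activator, was at 5.60, 2.62 and 1.87 (-0.34). BHLHE40, another repressor and the exception, stood at 13.7, 70.1 and 41.1 FPKM (-0.75). Glucocorticoid response genes were above 0 in 8 of 14 rows (median 0.29), none at 2-fold, with ZBTB16 at 55.0, 28.0 and 53.9 FPKM (0.92) and DUSP1 at 287, 194 and 357 (0.87). PER1 stands on this list too.

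The genes that PGC-1alpha is known for differed little between the 2 libraries. Of 50 rows for its partners and targets, 25 were above and 25 below 0, with a median of 0.00. Scaled to library sums, 33 were above and 17 below, with a median of 0.12, beside the shift of 0.12 in all genes. Only VEGFA passed 2-fold, in the direction of the non-transgenic library. The 16 partner factors had a median of 0.06, with NRF1 at 5.99, 4.77 and 5.71 FPKM (0.22), GABPA at 16.8, 17.6 and 15.6 (-0.17) and PPARA at 26.5, 11.5 and 16.9 (0.51). The 8 biogenesis genes had a median of 0.08, and TFAM stood at 8.34, 6.25 and 7.46 FPKM (0.22). The 17 metabolic targets had a median of -0.07, the 6 antioxidant targets -0.03, and the 3 coactivator rows -0.26, with PPARGC1B, the sister coactivator, at 1.60, 5.11 and 4.01 FPKM (-0.29).

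Nuclear genes of the respiratory chain had a median of -0.09 over 54 rows, which becomes 0.04 when libraries are scaled to their sums, so no direction can be given. Of the 50 rows above 0 in both libraries none reached 2-fold. By complex the medians were -0.06 for complex I (26 rows), 0.02 for complex II (1 row), -0.07 for complex III (5 rows), -0.13 for complex IV (11 rows) and -0.14 for complex V (11 rows). COX5A, a complex IV subunit, stood at 99.4, 202 and 150 FPKM (-0.43), the largest difference among those 50. The list has 82 names, for which 55 rows were found, 1 of them under the filter.

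The 13 protein genes of the mitochondrial genome had a median of -0.32, with 10 below 0 and none at 2-fold. MT-ATP8 stood at 3537, 35838 and 23135 FPKM (-0.63) and MT-ND3 at 788, 5344 and 3761 (-0.51), while MT-ND1 was at 1788, 1965 and 2267 (0.21). All 15 rows of the mitochondrial genome held 10.9% of the FPKM sum of the non-transgenic and 9.15% of that of the transgenic library, against 3.06% on chow. MT-ATP8, whose 204 bp locus overlaps another row's, held 35838 of 98094 mitochondrial FPKM in the non-transgenic and 23135 of 75433 in the transgenic library. On chow it held 3537 of 28844. The genes of this genome are made as joint transcripts, so these 13 values are not independent of each other.

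Fatty acid oxidation genes were above 0 in 16 of 29 rows (median 0.06), or in 24 (median 0.19) with libraries scaled to their sums. HADH, a dehydrogenase of the pathway, stood at 118, 73.1 and 113 FPKM (0.62) and ACSL5, an acyl-CoA synthetase, at 2.09, 18.3 and 11.0 (-0.69). CPT2, of the carnitine shuttle, was at 2.73, 4.21 and 3.20 FPKM (-0.31). Tricarboxylic acid cycle genes had a median of -0.07 over 23 rows, which becomes 0.06 with scaling to library sums, and ACO1, the cytosolic aconitase, stood at 17.0, 45.5 and 34.5 FPKM (-0.39). Antioxidant genes had a median of 0.00 over 21 rows. The 1 of them past 2-fold was MSRB1, a methionine sulfoxide reductase, at 5.63, 0.767 and 8.68 FPKM (2.45), at a locus that overlaps another row's.

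**Figure D4:**
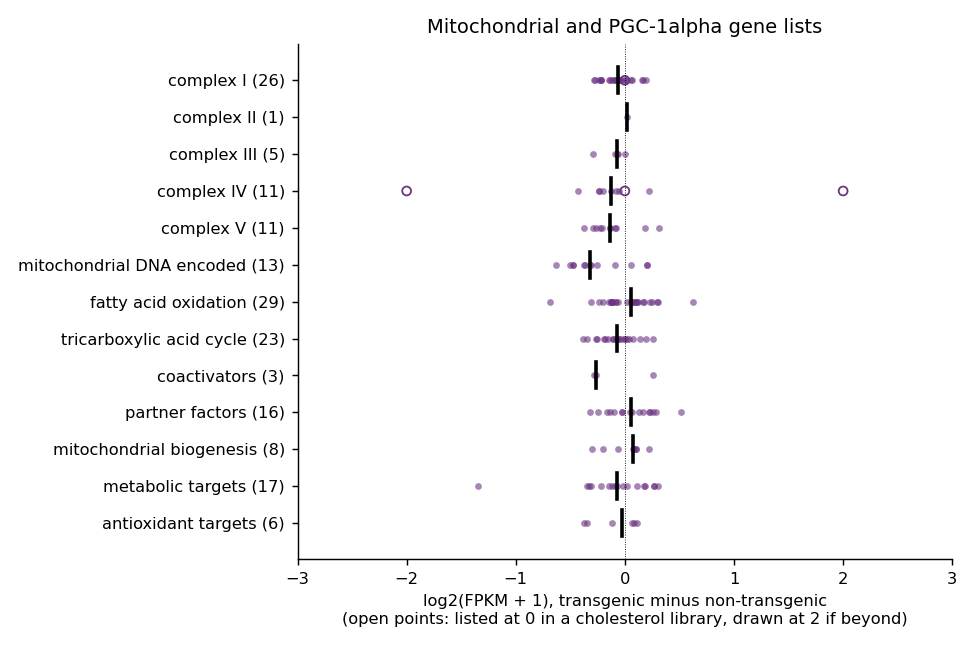
Difference in log2(FPKM + 1), transgenic minus non-transgenic cholesterol library (horizontal axis), for respiratory chain complexes, mitochondrial DNA genes, fatty acid oxidation, the tricarboxylic acid cycle and the roles within the PGC-1alpha list (vertical axis, number of rows in brackets). Points are genes, black bars are medians, and open points mark genes listed at 0 in a cholesterol library. Medians lie from -0.32 for the mitochondrial DNA genes to 0.08 for mitochondrial biogenesis.

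The cholesterol synthesis list was above 0 in 13 of 20 rows (median 0.17). FDFT1, squalene synthase, stood at 66.5, 20.1 and 27.1 FPKM (0.41). Efflux and LXR target genes were above 0 in 7 of 14 rows (median 0.02). ARL7, a GTPase gene that LXR induces, stood at 0.361, 11.7 and 5.26 FPKM (-1.02), and ABCA1, the cholesterol efflux pump, at 4.13, 82.6 and 58.6 (-0.49). Lysosome genes were below 0 in 26 of 32 rows by little (median -0.19), or in 22 (median -0.06) with libraries scaled to their sums. The protease CTSE had the largest difference, at 0.069, 118 and 35.1 FPKM (-1.72).

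TGF-beta response genes had a median of -0.10 over 25 rows, which becomes 0.03 with scaling to library sums. BAMBI, a decoy receptor of the pathway, stood at 129, 38.7 and 111 FPKM (1.496) and SMAD6, an inhibitor of BMP signals, at 40.0, 74.2 and 43.8 (-0.75). Growth arrest and senescence genes were below 0 in 13 of 19 rows (median -0.31). CDKN2A, a cell cycle inhibitor, was listed at 0 on chow and stood at 8.33 and 3.37 FPKM (-1.10).

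Markers of other cells of the aorta had no common direction. Of 20 endothelial rows 10 were above 0 and 10 below (median 0.01), with differences from -0.56 to 1.01 and a sum of 226, 419 and 446 FPKM. Among those above 0, CLDN5, a tight junction protein, stood at 24.4, 19.1 and 38.9 FPKM (0.99), and PECAM1 at 22.7, 34.6 and 39.0 (0.17). Adipocyte markers had a median of 0.12 over 8 rows, with GPD1, an enzyme of glycerol synthesis, at 4.24, 2.96 and 9.12 FPKM (1.35) and ADIPOQ, adiponectin, at 6.80, 24.7 and 16.1 (-0.59). Schwann cell and nerve markers were above 0 in 11 of 12 rows (median 0.21). Of 8 cartilage and bone genes 6 were below 0 (median -0.15), or 5 (median -0.04) with libraries scaled to their sums. CYTL1 was among the lower ones at 1.70, 6.62 and 3.27 FPKM (-0.83). SOST, sclerostin, had the opposite sign at 38.4, 10.4 and 24.9 FPKM (1.18).

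All 4 blood genes over the filter were above 0 (median 0.79), and the sum over all 6 rows was 80.3, 149 and 391 FPKM. HBB2, a beta globin, stood at 37.1, 106 and 334 FPKM (1.65), and ALAS2, which starts haem synthesis in red cell precursors, at 1.14, 1.16 and 3.35 (1.01). Globin was thus highest in the transgenic library, and the part of blood in the differences of S100A8 and S100A12 was not tested.

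Several of the largest single differences lay in genes outside these groups. DNER, a Notch ligand, stood at 42.9, 10.4 and 43.0 FPKM (1.95), HRH1, the histamine H1 receptor, at 10.5, 0.372 and 4.51 (2.01), PLA2G2A, a secreted phospholipase, at 6.53, 6.39 and 23.4 (1.72), and the more abundant of 2 PTGR1 rows, for an enzyme that inactivates prostaglandins and leukotrienes, at 48.5, 5.60 and 20.8 (1.72). DNER was close to its chow level, and PLA2G2A was higher than in both other libraries. In the other direction, GLRX, glutaredoxin, stood at 8.69, 97.1 and 21.5 FPKM (-2.12) and RHOF, a small GTPase, at 3.40, 14.5 and 3.26 (-1.86).

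Other large differences were in genes whose values are less certain. RPL17, a ribosomal protein, had the largest difference below 0, among named genes averaging 5 FPKM or more and above 0 in all libraries, at 278, 580 and 23.7 FPKM (-4.56), but a second RPL17 row stood at 804, 466 and 891. Over 99 rows of ribosomal protein genes the median was 0.02, with 1 row at least 2-fold higher and 2 lower. RPS27L, LSM5, C4orf46 and, at an overlapping locus, PDILT were among the 15 largest above 0, and SNRPF, TIMM10, UFM1 and MRPS21 among the 15 largest below. LSM5, of an RNA-binding ring, stood at 79.0, 24.1 and 133 FPKM, and SNRPF, of the spliceosome, at 16.5, 11.5 and 1.19.

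The genes listed at 0 in 1 cholesterol library had the largest nominal differences. DEFB1, a defensin, was listed at 0, 0 and 901 FPKM, C14orf2, a small ATP synthase subunit, at 445, 0 and 602, MRPL36 at 0, 0 and 300.2, and SDHAF4 at 7.95, 0 and 59.6. At 0 in the transgenic library were C1orf21, TMEM238, SMIM10L1, C4orf32 and GCHFR, which stood at 78.4, 56.0, 56.0, 43.6 and 19.2 FPKM in the non-transgenic library. Since C14orf2 and SMIM10L1 were present in 2 libraries and at 0 in the third, a 0 here need not mean that the transcript was absent, and no ratio is given.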

How the data were processed

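RNA was measured in 3 libraries of aortic media, each pooled from 5 rabbits, after oligo(dT) selection of mRNA, per the labels' protocols. The deposited values are FPKM, made by the authors and named so in the file headers. Per the submitters' processing notes, the genome was OryCun2.0, and neither an aligner nor a quantifier is given in the sources used here. The absolute depth is unknown, so no counting error can be given for a gene. Low values stand in whole-number ratios, which put the transgenic library at 0.964 times the fragments of the non-transgenic one (207 genes, 77.3% within 1% of such a ratio).

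Libraries were matched to groups by the number in the table's column names and in the labels' descriptions. The comparison used log2(FPKM + 1) over rabbit genes averaging 1 FPKM or more, in Python 3.11.15 with pandas 2.3.3 and numpy 2.4.6, and the script was tested on simulated data. The pseudocount makes differences of low genes smaller than their ratios. A low gene can pass the filter through 1 library alone, and this is not marked at every gene named above. The genes nearest to the filter were APBA2, left out at a mean of 0.9997 (0.510, 1.60 and 0.889 FPKM), and KY, kept at 1.0005 (1.55, 0.606 and 0.847). Symbols came from the authors' table, and 47 rows were named through RefSeq gene IDs (assembly mOryCun1.1, whose coordinates were not used), which left 1109 of 11597 rows without a symbol. Counting by strand is not stated, and 1471 rows share a locus with another row. The overlap is not marked at every gene named above. Unmarked ones include LMOD1, HMMR, RRM2, TK1, THBS1, TIMP1, SHMT2, CP, TNXB, LAT, CRY2, ALAS2, CA9, ACSL5 and COX5A.

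Members were matched to 41 gene lists, 14 of cell type markers and 27 of pathways. Genes named are the transgene and its rabbit counterpart, the top 15 differences upward and downward among genes averaging 5 FPKM or more and above 0 in all libraries, the 4 largest of each list, and the 5 highest genes listed at 0 in 1 cholesterol library, in each direction. Other named genes were chosen after their values were seen. A few genes that these rules take are not reported here. The members and lists were chosen with earlier results of these data known, and the level ranges and 2 further lists were added after seeing the data. With 1 library per group, no test was made. Alternatives were other pseudocounts, filters and scalings, and leaving out genes at 0. The table's 2 further sheets, of which 1769 of 1769 and 9933 of 9934 rows repeat values of the main one, were not used as calls. The chow library is shown for level only, because the diet comparison shares the non-transgenic cholesterol library with this one.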

Additional observations from a re-analysis of the deposited data

How the results depend on the processing

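No list median changed its direction under the alternatives when it was 0.2 or more from 0. The number of genes at least 2-fold higher was 323 with a pseudocount of 0.1, 75 with one of 5, and 117 with a filter at a mean of 5 FPKM, and the number at least 2-fold lower was 360, 96 and 118. With a pseudocount of 5 the median was -0.42 for mitosis, -0.26 for DNA replication, -0.29 for T cells, -0.25 for B and plasma cells, 0.25 for neutrophils and mast cells and 0.38 for blood. With the filter at 5 FPKM it was 0.92 for striated-type muscle, -0.64 for the acute phase, -1.15 for T cells, -1.09 for B and plasma cells and 1.87 for neutrophils and mast cells. With no filter it was 0.0069 for striated-type muscle, -0.33 for T cells, -0.11 for B and plasma cells and 0.45 for blood, and with a pseudocount of 0.1 it was -0.90 for T cells. Of these settings, those with another pseudocount or filter change the weight or the number of low genes, and the cause of single shifts was not tested. The mesothelium median, of a list added after seeing the data, was 0.56 to 0.81 in the 3 settings that moved it, and the other 282 medians changed by under 0.2 or by at most 1.5 times. Scaling to the FPKM sums gave 281 genes higher and 207 lower, and centring on the median gave 207 and 235. No paired analysis was possible because each group has 1 library. Of genes at 1 to 5 FPKM 7.84% passed 2-fold, against 1.90% at 20 to 100, and the absolute depth is unknown.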

Other observations

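Markers of mesothelium, the cell sheet that lines the body cavities and not a part of the media, were higher in the transgenic library. The list was made after KRT8 was seen among the largest differences, so its direction is no independent evidence. Of 17 rows 11 were over the filter, with a median of 1.26. Of these 11, KRT8 included, 10 were above 0 (48.1% of all genes) and 6 by 2-fold or more (1.7%). UPK1B, at 0.309, 0.120 and 3.21 FPKM, passed the filter only through its transgenic value. With no filter the median was 0.78. The sum over all 17 rows was 60.3 FPKM on chow, 86.5 in non-transgenic and 138 in transgenic animals on the cholesterol diet. KRT8, a keratin, stood at 7.36, 1.62 and 9.98 FPKM (2.07), UPK3B, a uroplakin, at 4.70, 1.43 and 7.04, PRG4, lubricin, at 10.5, 8.99 and 30.3, and CLDN15, a claudin, at 6.26, 1.07 and 4.38. ALDH1A2, which makes retinoic acid, had the highest level and was the exception at 9.48, 55.5 and 49.1 FPKM (-0.17). The mesothelial factor WT1, at 1.02, 0.375 and 1.03 FPKM, was under the filter. The part of such cells in the other differences was not tested.

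Genes of prostanoid and leukotriene synthesis and reception are a list also made after values were seen. Of 25 rows 14 were above 0 and 11 below (median 0.11), or 20 and 5 (median 0.20) with libraries scaled to their FPKM sums, with 4 at least 2-fold higher and 1 lower. PTGIR, the prostacyclin receptor, stood at 1.47, 2.28 and 5.43 FPKM, and PTGS1, the constitutive cyclooxygenase, at 8.79, 8.45 and 14.5. CYSLTR2, a leukotriene receptor, was lower at 0.295, 11.4 and 3.89 FPKM (-1.34), and PTGS2, the inducible cyclooxygenase, was at 1.01, 5.97 and 5.86.

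Large differences were more frequent at short loci. Of 855 genes with a locus under 1 kb, 146 (17.1%) passed 2-fold in either direction and 96 (11.2%) were listed at 0 in a cholesterol library. Of 1735 genes from 1 to 5 kb 6.17% passed 2-fold, of 3050 from 5 to 20 kb 3.11%, and of 5957 at 20 kb or more 1.56%. The median absolute difference over genes above 0 in both libraries was 0.30 under 1 kb and 0.19 at 20 kb or more.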
